A study of Oryza sativa Japonica Group with 14 samples.

Results

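The comparison concerned the strength and width of H3K4me3 peaks in the inflorescence meristem (IM) and the shoot apical meristem (SAM) of wild-type (WT) rice. Its members were all 22183 peaks of the WT IM list and all 22358 peaks of the WT SAM list, together 44541 of the 130467 peaks in the 8 lists of the series. Both meristems came from field-grown plants of the DongJin background and were dissected by hand, about 400 plants being used per the labels. IM apices measured 1 to 2 mm and were taken at the 10 to 12 leaf stage, and SAM apices measured under 0.5 mm and were taken at the 6 to 7 leaf stage. H3K4me3 lists of IM from SDG711 RNAi plants and from jmj703 plants, and the H3K27me3 lists of WT IM and WT SAM, were used beside them. SDG711 is a Polycomb-group H3K27 methyltransferase and JMJ703 an H3K4 demethylase. Each tissue, genotype and mark had 1 library without replicates, so no difference was tested, and tissue, plant age and library preparation cannot be told apart.

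H3K4me3 is the trimethylation of lysine 4 of histone H3. It is laid down by COMPASS-like methyltransferases around the start of transcribed genes, and the height and width of its peaks tend to follow promoter activity. H3K27me3 is the repressive mark of Polycomb complexes, and regions that carry both marks have been described in plants and animals as bivalent. The SAM forms leaves until the plant turns to flowering, when it becomes the IM, which forms the branches of the panicle. Peak coordinates below are those of the deposited lists, whose build the headers and labels do not name, and no gene was assigned to a peak.

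The libraries held 18452560 tags after filtering in WT IM and 13703302 in WT SAM. Peaks contained 38.7% of the tags in WT IM and 24.4% in WT SAM, and covered 37.5 Mb in WT IM and 31.8 Mb in WT SAM. The median peak was 1570 bp long in WT IM and 1323 bp in WT SAM. Peaks of at least 3 kb numbered 748 in WT IM and 260 in WT SAM, and peaks of at least 4 kb numbered 122 in WT IM and 60 in WT SAM.

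Peaks were paired where 1 peak of each list overlapped only the other by at least 1 bp. This gave 19361 pairs, which were 87.3% of the WT IM peaks and 86.6% of the WT SAM peaks. A further 347 WT IM and 479 WT SAM peaks overlapped in larger groups. In 195 of these groups 1 WT IM peak spanned 2 WT SAM peaks, whereas in 63 groups 2 WT IM peaks lay over 1 WT SAM peak. The remaining 2475 WT IM peaks (11.2%) and 2518 WT SAM peaks (11.3%) were unpaired.

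Paired peaks were longer in WT IM, and denser per filtered tag. Strength was expressed as tag density in RPKM, the tags (aligned reads) in a peak per kb of its length and per 1000000 filtered tags of its library. The median density was 10.1 RPKM in WT IM and 7.45 in WT SAM. Over the pairs, the median log2 ratio of WT IM to WT SAM density was 0.42, with quartiles of 0.23 and 0.58, or a 1.34-fold higher density. The WT IM peak was the denser one in 17336 pairs (89.5%). Single pairs ranged in log2 density ratio between -0.97 and 1.55. The order of the peaks was largely shared, with a Spearman correlation of density of 0.79 over the 19361 pairs, whose points share the same 2 libraries.

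The size and the sign of this shift rested on the scaling, while the spread around it did not. When the tags were scaled to those inside all peaks of each list instead of all filtered tags, the median ratio was 0.844, that is, lower in WT IM. By that scaling, which was applied to the share after seeing the data, the WT IM peak was the denser one in 2893 pairs (14.9%). Counts of denser and sparser pairs are therefore given relative to the median of all pairs, while densities and ratios of single pairs, quintiles and classes are uncentred and per filtered tag. Relative to the median, 4 pairs were at least 2-fold denser in WT IM (0.0207% of all pairs) and 56 were at least 2-fold sparser (0.289%). At 1.5-fold, 119 pairs were denser (0.615%) and 974 were sparser (5.03%). The exact counting interval of the ratio lay wholly above the median in 2364 pairs (12.2%) and wholly below it in 2942 (15.2%). In 305 pairs (1.58%) the interval lay below equal density, so that WT IM was the sparser library without centring.

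The ratio was highest among strong peaks. In the quintile of pairs with the lowest mean density the median log2 ratio was 0.11, and over the next quintiles it was 0.38, 0.45, 0.49 and 0.55. Of the 974 pairs that were 1.5-fold sparser in WT IM, 787 fell in the lowest quintile, where they made up 20.3% of the pairs, and 19 fell in the highest quintile. The length ratio varied less across these quintiles, with a median log2 value of 0.19 in the lowest quintile and 0.25 in the highest. A weak peak has to pass the calling cutoff in both lists to be paired, which limits the ratios that the lowest quintile can show.

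**Figure D1:**
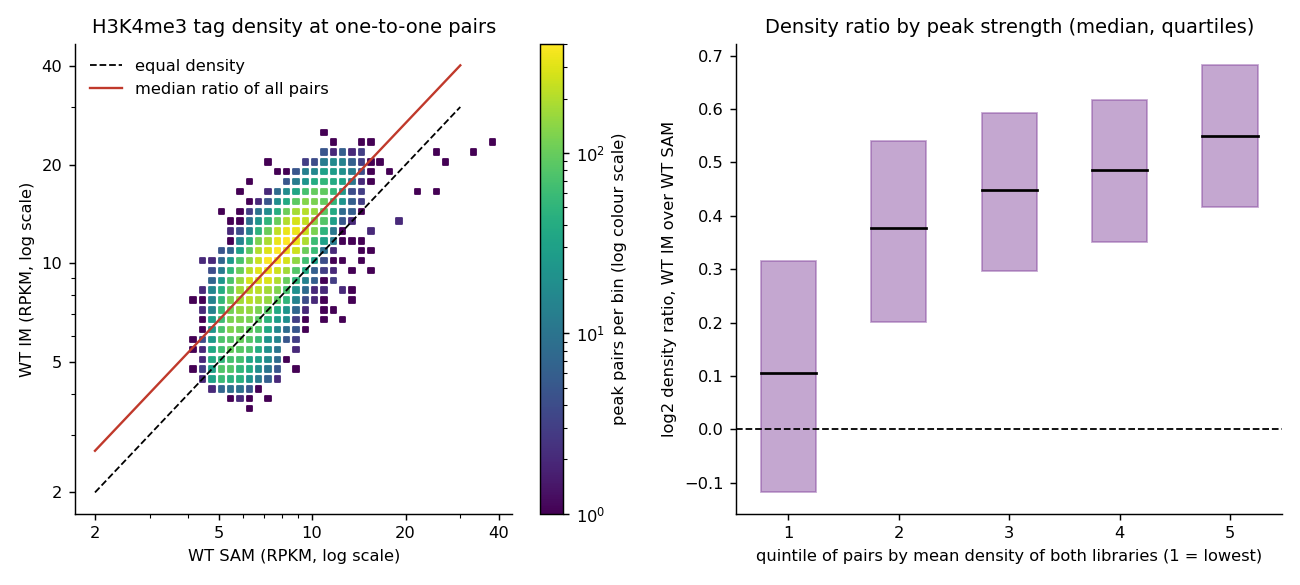
The left panel plots tag density of WT IM (vertical) against WT SAM (horizontal) in RPKM, on log axes, with colour for the number of pairs in a bin; the right panel plots the median (line) and quartiles (box) of the log2 density ratio by quintile of mean density. Most pairs lie above the dashed line of equal density, and the median ratio is 0.11 in the lowest quintile and 0.55 in the highest.

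Single pairs were named among the 15160 with at least 100 tags and 500 bp in both lists. The pair with the greatest ratio of WT IM to WT SAM density lay on chromosome 1 from 24894624 to 24897657, with 17.1 RPKM in WT IM and 5.83 in WT SAM. This was 2.94-fold (exact counting interval 2.48 to 3.49), or 2.19-fold relative to the median of all pairs, and the WT IM peak was 3034 bp long against 2016 bp in WT SAM. The SDG711 RNAi IM library had 17.4 and the jmj703 IM library 24.1 RPKM there, so that WT SAM was the low library. On chromosome 11 from 306161 to 308069, the density was 19.9 in WT IM and 7.28 in WT SAM, while the length was close at 1909 bp in WT IM and 1714 bp in WT SAM. It was the only one of the 5 with an H3K27me3 peak, in WT IM, at 4.08 RPKM. On chromosome 1 from 3481704 to 3484680 the density was 17.2 in WT IM and 6.34 in WT SAM. The other two lay on chromosome 1 from 10805932 to 10808256, with 13.5 in WT IM and 5.44 in WT SAM, and on chromosome 2 from 19376256 to 19379055, with 15.6 in WT IM and 6.49 in WT SAM. None of the 5 had an H3K27me3 peak in WT SAM, where 12.8% of all pairs had one. All 5 had a peak in both other IM libraries, at densities between 15.1 and 24.1, above the WT SAM values.

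The pairs with the lowest ratio carried H3K27me3 in WT SAM in all 5 cases, and in WT IM in 4, against 12.8% of all pairs in WT SAM and 13.3% in WT IM. The lowest, on chromosome 11 from 12039510 to 12045165, had 6.61 RPKM in WT IM and 12.97 in WT SAM, a 0.51-fold ratio (exact counting interval 0.462 to 0.562), or 0.38-fold relative to the median of all pairs, at nearly equal lengths of 5656 bp in WT IM and 5728 bp in WT SAM. The H3K27me3 libraries showed much the same values over the same stretch. H3K27me3 density there was 6.98 in WT IM, over 5703 bp, and 11.6 in WT SAM, over 5745 bp. The jmj703 IM library, at 14.2 RPKM of H3K4me3, was as high as WT SAM, and the SDG711 RNAi IM library, with 2 peaks there, was not. Over regions with a single peak in every H3K4me3 list, however, jmj703 IM density was a median of 1.74-fold that of WT SAM. Relative to that median, jmj703 IM was low here too.

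A pair of these places lay close together near the end of chromosome 5. From 29904897 to 29908390, H3K4me3 density was 7.52 in WT IM and 13.5 in WT SAM, and H3K27me3 density was 8.03 in WT IM and 12.1 in WT SAM. From 29888808 to 29892220, H3K4me3 density was 6.76 in WT IM and 11.2 in WT SAM, and H3K27me3 density was 7.79 in WT IM and 11.1 in WT SAM. Both marks thus had similar tag densities per filtered tag within each tissue at these 2 places, and both were lower in WT IM. On chromosome 10 from 12041541 to 12043131 the H3K4me3 density was 4.73 in WT IM and 8.70 in WT SAM, with H3K27me3 in WT SAM only, at 8.26. On chromosome 12 from 26210210 to 26212227 it was 7.04 in WT IM and 11.7 in WT SAM, and there H3K27me3 was at 4.74 in WT IM and 4.72 in WT SAM. No control library was used for the calls, and the part of local tag excess common to both antibodies in these values was not tested.

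H3K27me3 of both tissues was more frequent among the sparser pairs than among all pairs, of which 13.3% overlapped it in WT IM and 12.8% in WT SAM. Among the 974 pairs at least 1.5-fold sparser in WT IM, 355 (36.4%) overlapped a WT IM H3K27me3 peak and 504 (51.7%) a WT SAM one. The shares of all pairs are not matched for strength, as 787 of the 974 fell in the lowest quintile of mean density. Of all 3873 pairs in that quintile, 617 had H3K27me3 in both tissues, 420 in WT SAM only and 149 in WT IM only. Among the 56 pairs at least 2-fold sparser, the numbers were 28 in WT IM and 41 (73.2%) in WT SAM. Of the 119 pairs at least 1.5-fold denser in WT IM, 26 (21.8%) overlapped WT IM H3K27me3 and 5 overlapped WT SAM H3K27me3.

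Pairs were then grouped by where an H3K27me3 peak overlapped them. The H3K27me3 peaks of the class with WT IM only had a median −log10 p of 7.94, against 13.2 in the whole WT IM list. In the class with WT SAM only the median was 8.21, against 12.2 in the whole WT SAM list. In the class with both it was 14.9 in WT IM and 15.5 in WT SAM. Classes with H3K27me3 in a single tissue thus rested largely on weaker H3K27me3 calls. The 1262 pairs with H3K27me3 in WT IM only had the strongest H3K4me3, with a median density of 14.0 RPKM in WT IM and 9.25 in WT SAM. Their median log2 density ratio was 0.55, against 0.44 in the 15621 pairs without H3K27me3 in either tissue. The 1171 pairs with H3K27me3 in WT SAM only had densities of 8.94 in WT IM and 7.60 in WT SAM and a median log2 ratio of 0.21. The 1307 pairs with H3K27me3 in both tissues had 7.36 in WT IM and 6.79 in WT SAM, and a median log2 ratio of 0.12. Pairs 1.5-fold sparser in WT IM made up 3.88% of the pairs with H3K27me3 in WT IM only, 16.9% of those with it in WT SAM only, 23.4% of those with it in both, and 2.70% of those with it in neither.

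Length followed the same order at the low end. The median log2 length ratio was 0.26 with H3K27me3 in WT IM only, 0.16 with it in WT SAM only, 0.13 with it in both and 0.26 with it in neither. The classes differed in peak strength, so both ratios were also read within quintiles of mean density. The lowest quintile held 617 of the 1307 pairs with H3K27me3 in both tissues. In that quintile the median log2 density ratio was -0.11 with H3K27me3 in WT SAM only, -0.084 with it in both and 0.18 without H3K27me3. In the highest quintile it was 0.44 with H3K27me3 in WT SAM only, 0.51 with it in both and 0.55 without H3K27me3. The median log2 length ratio in the lowest quintile was 0.050 with H3K27me3 in WT SAM only, 0.023 with it in both and 0.24 without it. In the highest quintile these length values were 0.21, 0.20 and 0.25. The class with H3K27me3 in WT IM only did not keep one direction in its density ratio. Of its 1262 pairs 802 were in the highest quintile, where its median was 0.62, above that of pairs without H3K27me3, whereas in the lowest quintile it was 0.022, below the 0.18 of pairs without H3K27me3. It was also below in the next 2 quintiles, at 0.37 against 0.39 and 0.41 against 0.46. With H3K27me3 peaks limited to p of at most 1e-10, an alternative chosen after seeing the data, the difference in median log2 density ratio from pairs without H3K27me3 was 0.018 for the class with it in WT IM only (0.11 with all H3K27me3 peaks) and -0.36 for the class with it in WT SAM only (-0.22 with all H3K27me3 peaks).

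**Figure D2:**
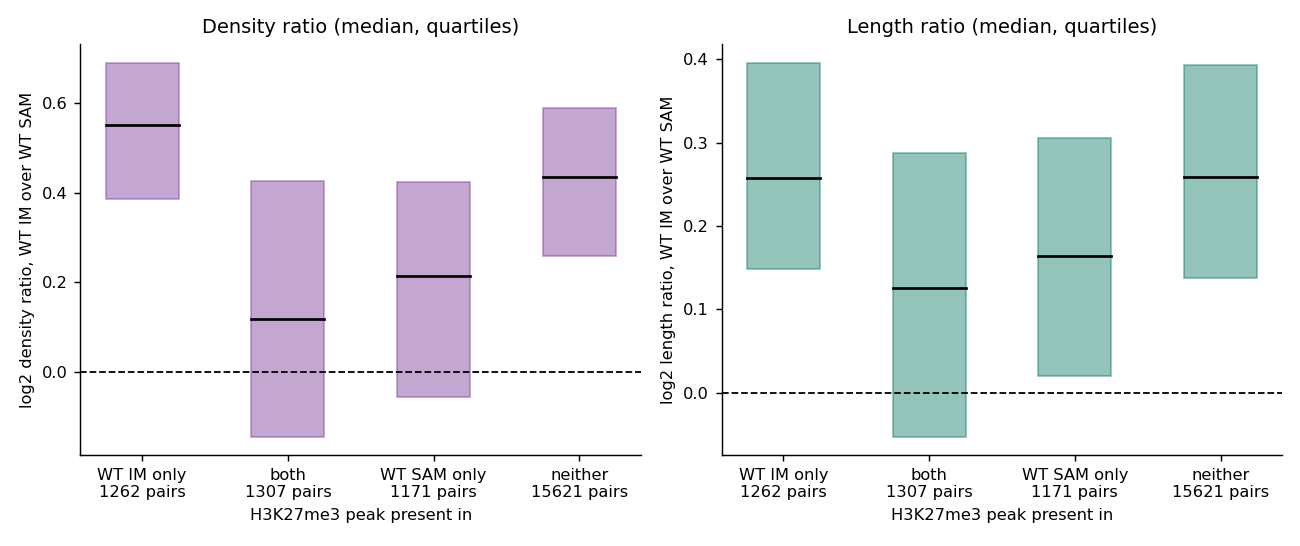
Median (line) and quartiles (box) of the log2 density ratio (left) and log2 length ratio (right) of WT IM over WT SAM H3K4me3, for pairs with an H3K27me3 peak in WT IM only, in both tissues, in WT SAM only or in neither. Medians are lowest in the classes with H3K27me3 in WT SAM, at 0.12 and 0.21 for density and 0.13 and 0.16 for length.

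Width was greater in WT IM. Paired peaks had a median length of 1609 bp in WT IM and 1345 bp in WT SAM, and the median difference within pairs was 260 bp, with quartiles of 127 and 398 bp. The median log2 length ratio was 0.25, or 1.19-fold. The WT IM peak was the longer one in 17394 pairs (89.8%), and it was both longer and denser in 16232 (83.8%), or in 2726 (14.1%) with density scaled by tags inside peaks. It was at least 1.5-fold longer in 1538 pairs (7.94%) and at least 1.5-fold shorter in 149 (0.77%). The gain in bp was larger at wide peaks, with a median of 201 bp in the quintile of pairs with the lowest mean length and 338 bp in the highest. As a fold the gain was 1.20 in the lowest quintile and 1.16 in the highest.

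Widening was read from the edges, with a displacement of at least 100 bp counted as movement. The WT IM peak reached outward at both ends in 5783 pairs (29.9%) and at one end, with the other edge within 100 bp, in 8898 (46.0%). Both edges stayed within 100 bp in 2863 pairs (14.8%), and both lay inward in 141 (0.728%). In 865 pairs one edge lay outward and the other inward. The one-sided pairs extended at the lower-coordinate end in 4817 cases and at the higher-coordinate end in 4081, and the lower end was the more frequent on 11 of 12 chromosomes. The median outward displacement was 124 bp at the lower end and 109 bp at the higher end, so the midpoints differed by a median of only -6.5 bp. With 50 bp as the limit the balance between both ends and one end turned, at 9659 pairs against 5822.

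Coordinates do not show the direction of transcription, so the flanks were also ordered by the peak's own shape, a step chosen after seeing the data. The summit of the jmj703 IM peak, from another IM library, lay off that peak's own centre by at least 10% of its length in 8772 pairs. The long flank was the side of the jmj703 IM peak with the greater distance from summit to edge. In these, the WT IM edge lay outward in 68.2% at the long flank (Wilson interval 67.2 to 69.2%) and in 46.6% at the short flank (45.6 to 47.7%). The median outward displacement was 168 bp at the long flank and 90 bp at the short flank. Outward movement at the long flank alone was seen in 2933 pairs and at the short flank alone in 1151. With the summit of SDG711 RNAi IM the shares were 68.0% at the long flank and 42.5% at the short flank. With that of WT SAM itself they were 59.3% at the long flank and 49.0% at the short flank. As jmj703 IM and SDG711 RNAi IM are of the same tissue as WT IM, part of their contrast can be built into the ordering. That part was not tested.

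The other IM libraries were compared at 16790 regions with a single peak in all 4 H3K4me3 lists. The median WT IM peak there measured 1629 bp, the SDG711 RNAi IM peak 1742 bp, the jmj703 IM peak 1270 bp and the WT SAM peak 1351 bp. The median length ratio over WT SAM was 1.20 for WT IM, 1.28 for SDG711 RNAi IM and 0.956 for jmj703 IM, all 3 sharing the WT SAM library. The jmj703 IM library had 4869161 filtered tags, the fewest of the 4, and SDG711 RNAi IM had 17941001. Density gave another order, with a median ratio over WT SAM of 1.37 for WT IM, 1.34 for SDG711 RNAi IM and 1.74 for jmj703 IM. Peak length was thus shortest in the shallowest library, and the part of depth in the difference between WT IM and WT SAM was not tested. The spread of the log2 density ratio between its quartiles was 0.36 for WT IM over WT SAM. Between IM libraries it was 0.23 for SDG711 RNAi IM over WT IM and 0.41 for jmj703 IM, the shallowest library, over WT IM. Pairs at least 1.5-fold sparser relative to the median were 5.03% for WT IM over WT SAM. They were 0.09% for SDG711 RNAi IM and 1.89% for jmj703 IM over WT IM. Pairs at least 1.5-fold denser were 0.615% for WT IM over WT SAM, and 0.26% for SDG711 RNAi IM and 4.72% for jmj703 IM over WT IM. The part of depth in these spreads was not tested.

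**Figure D3:**
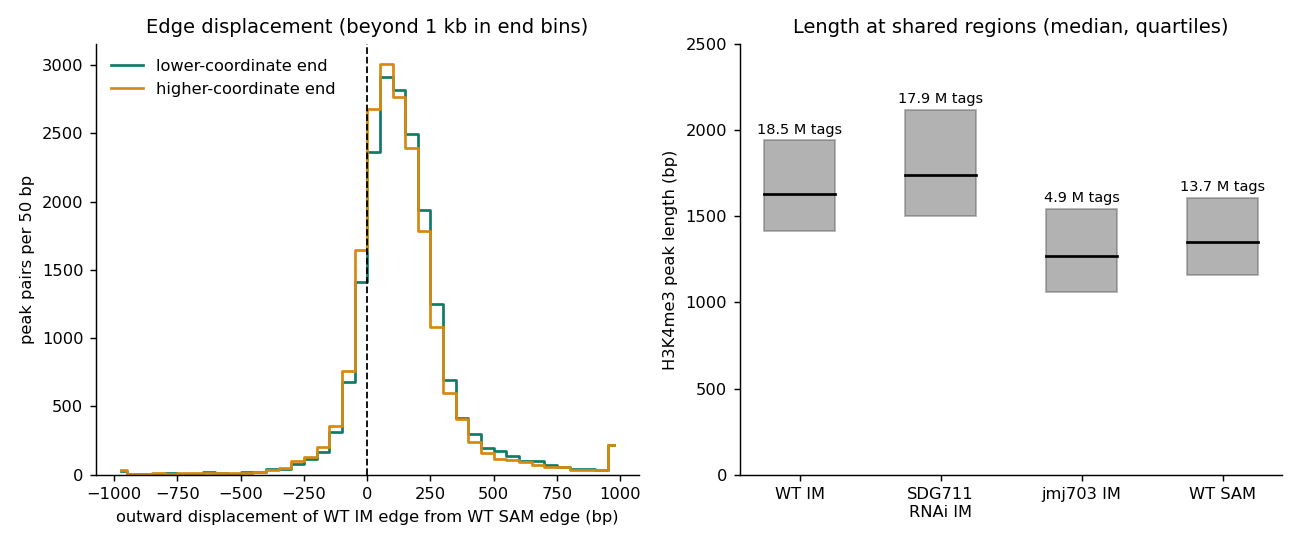
The left panel gives the number of pairs by outward displacement of the WT IM edge from the WT SAM edge in bp, for each end of the peak; the right panel gives the median (line) and quartiles (box) of peak length at 16790 shared regions in 4 H3K4me3 libraries, with their filtered tags above the boxes (M, 1000000 tags). Both edges peak outward of 0, with medians of 124 bp at the lower end and 109 bp at the higher end, and median lengths are 1629 bp in WT IM and 1351 bp in WT SAM.

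The 1538 pairs at least 1.5-fold longer in WT IM reached outward at both ends in 1046 cases (68.0%), against 29.9% of all pairs. Their median displacement was 678.5 bp at the end further out and 151 bp at the other, against 199 bp and 49 bp over all pairs. These contrasts are largely built into the choice of the pairs, as the gain in length is the sum of both displacements. An end had moved by at least 1 kb in 360 of them, and in 1 both ends had. These pairs had a median length of 2013 bp in WT IM and 1158 bp in WT SAM, and their median log2 density ratio of 0.41 was near that of all pairs. H3K27me3 overlapped 13.3% of them in WT IM and 9.43% in WT SAM.

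In the 5 largest gains among pairs of sufficient size, 1 end lay over 2 kb outward and the other at most 326 bp. On chromosome 7 from 2941479 to 2946974 the peak was 5496 bp long in WT IM and 1629 bp in WT SAM, with the WT IM edge 3541 bp outward at the lower end and 326 bp at the higher end. Its density was 9.36 RPKM in WT IM and 7.71 in WT SAM. On chromosome 5 from 29656404 to 29661616 the length was 5213 bp in WT IM and 1669 bp in WT SAM, and 3530 bp of the gain lay at the higher end. The remaining 3 lay on chromosome 1 from 28739598 to 28743303 (3706 bp in WT IM and 1220 bp in WT SAM), on chromosome 1 from 29843154 to 29847007 (3854 bp in WT IM and 1312 bp in WT SAM) and on chromosome 2 from 23526955 to 23530584 (3630 bp in WT IM and 1239 bp in WT SAM). All 5 were also listed in both other IM libraries, where each peak was longer than in WT SAM, at 1541 to 4125 bp. An H3K27me3 peak was present at 3 of the 5 in WT IM and at none in WT SAM, too few to set against the shares of all 1538 longer pairs. When peaks up to 500 bp apart were joined first, the log2 length ratio of the chromosome 5 pair was 2.14 instead of 1.64.

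The 149 shortened pairs were mostly weak, with 121 in the quintile of lowest mean density. Their median was 5.09 RPKM in WT IM and 6.11 in WT SAM. H3K27me3 overlapped 57 of them (38.3%) in WT IM and 85 (57.0%) in WT SAM, against 13.3% of all pairs in WT IM and 12.8% in WT SAM. It was also more frequent in the whole lowest quintile than among all pairs. Of the 3873 pairs of that quintile, 617 had H3K27me3 in both tissues, 420 in WT SAM only and 149 in WT IM only. The greatest loss, on chromosome 6 from 21528 to 23442, left 1915 bp in WT IM against 4982 bp in WT SAM. There the WT SAM H3K27me3 peak had nearly the span of the H3K4me3 peak, at 4930 bp, and a similar density of 7.10 against 7.21 for H3K4me3. The WT IM H3K27me3 peak was 1068 bp long. On chromosome 3 from 13459435 to 13461567, the H3K4me3 length was 2133 bp in WT IM and 5103 bp in WT SAM, and the H3K27me3 length was 2132 bp in WT IM and 5140 bp in WT SAM, so both marks shortened alike. Of the other three, on chromosome 7 from 3152038, chromosome 12 from 19236273 and chromosome 12 from 11693580, only the last had H3K27me3, in WT SAM. The chromosome 7 pair was denser in WT IM, at 11.4 RPKM against 5.72 in WT SAM. With p of at most 1e-10 in both lists the number of pairs at least 1.5-fold shorter was 59.

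Unpaired peaks were shorter and weaker than paired ones in both lists. Their median length was 1192 bp in WT IM and 1128 bp in WT SAM, against 1609 bp and 1345 bp for the paired peaks of WT IM and WT SAM. Their median density was 5.89 RPKM in WT IM and 5.35 in WT SAM. At least 2 kb was reached by 143 unpaired peaks in WT IM and 116 in WT SAM. The median distance to the nearest peak of the other list was 5.03 kb in WT IM and 6.09 kb in WT SAM, and 241 WT IM and 220 WT SAM peaks lay within 1 kb of one. The deposited p was at most 1e-10 for 53.9% of the unpaired peaks in WT IM and 20.6% in WT SAM. Keeping only such peaks in both lists left 4297 unpaired in WT IM and 903 in WT SAM. Of these, 1333 in WT IM and 518 in WT SAM overlapped no peak of the whole other list. The rest overlapped only peaks that the filter had removed. With the 20000 peaks of lowest p in each list the counts were 2318 in WT IM and 2231 in WT SAM.

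Other lists separated the unpaired peaks of the tissues. Of the 2475 unpaired WT IM peaks, 88.3% were overlapped by H3K4me3 of SDG711 RNAi IM, 62.0% by that of jmj703 IM and 59.5% by both, and 226 (9.13%) by neither. These shares were below those of the WT IM peaks that overlapped WT SAM, of which 19307 of 19708 were overlapped by SDG711 RNAi IM and 17720 (89.9%) by jmj703 IM. Of the 2518 unpaired WT SAM peaks, 16.7% were overlapped by H3K4me3 of SDG711 RNAi IM and 5.48% by that of jmj703 IM, and 2031 (80.7%) by neither. Among the WT SAM peaks that overlapped WT IM the numbers were 19440 of 19840 for SDG711 RNAi IM and 17816 (89.8%) for jmj703 IM.

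Most unpaired WT SAM peaks overlapped H3K27me3. An H3K27me3 peak of the same tissue overlapped 301 of the 2475 unpaired WT IM peaks (12.2%, Wilson interval 10.9 to 13.5%) and 1669 of the 2518 unpaired WT SAM peaks (66.3%, 64.4 to 68.1%). Among peaks that overlapped the other list the shares were 13.1% in WT IM and 12.5% in WT SAM. The difference was present at every strength of the WT SAM peak, since the share of unpaired peaks with H3K27me3 lay between 59.5% and 90.4% over 5 ranges of the deposited p. With H3K27me3 peaks limited to p of at most 1e-10 the shares were 8.81% in WT IM and 51.7% in WT SAM. In WT IM, 1092 of the unpaired WT SAM peaks (43.4%) also overlapped an H3K27me3 peak.

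Tag densities of both marks were set side by side at these places, per filtered tag of each library. For the 1639 unpaired WT SAM peaks matched by 1 H3K27me3 peak of WT SAM, the median density was 5.30 RPKM for H3K4me3 and 7.19 for H3K27me3, and the median ratio within a peak was 0.751. For the 2379 WT SAM peaks that were paired and so matched, the median ratio of H3K4me3 to H3K27me3 was 1.19. In WT IM the ratio was 0.879 over 277 unpaired peaks and 1.97 over 2488 paired peaks. Which mark was higher rested on the scaling, because peaks held 18.3% of the H3K27me3 tags in WT IM and 17.1% in WT SAM, fewer than for H3K4me3. Scaled by tags inside peaks, the ratios were 0.416 for unpaired and 0.934 for paired peaks in WT IM, and 0.528 for unpaired and 0.833 for paired peaks in WT SAM. The ratio was lower at unpaired than at paired peaks in both tissues. Scaling cannot alter this order, as it multiplies all ratios of a tissue by the same factor. In WT SAM, H3K4me3 density was 5.30 RPKM at unpaired and 7.18 at paired peaks, and H3K27me3 density was 7.19 at unpaired and 5.69 at paired peaks. The match in position was close in WT SAM, where 75.5% of the unpaired matches (73.4 to 77.6%) shared at least 50% of both peaks, against 78.6% of the paired ones. In WT IM the share was 46.6% of the unpaired matches and 53.8% of the paired ones. Unequal length of the 2 peaks limits this share whatever their position. In unpaired matches of WT IM the median length was 1192 bp for H3K4me3 and 2187 bp for H3K27me3. In those of WT SAM it was 1126 bp for H3K4me3 and 1676 bp for H3K27me3. Whether these WT SAM peaks hold H3K4me3 beyond a tag excess shared by both antibodies was not tested, as no control library was used.

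**Figure D4:**
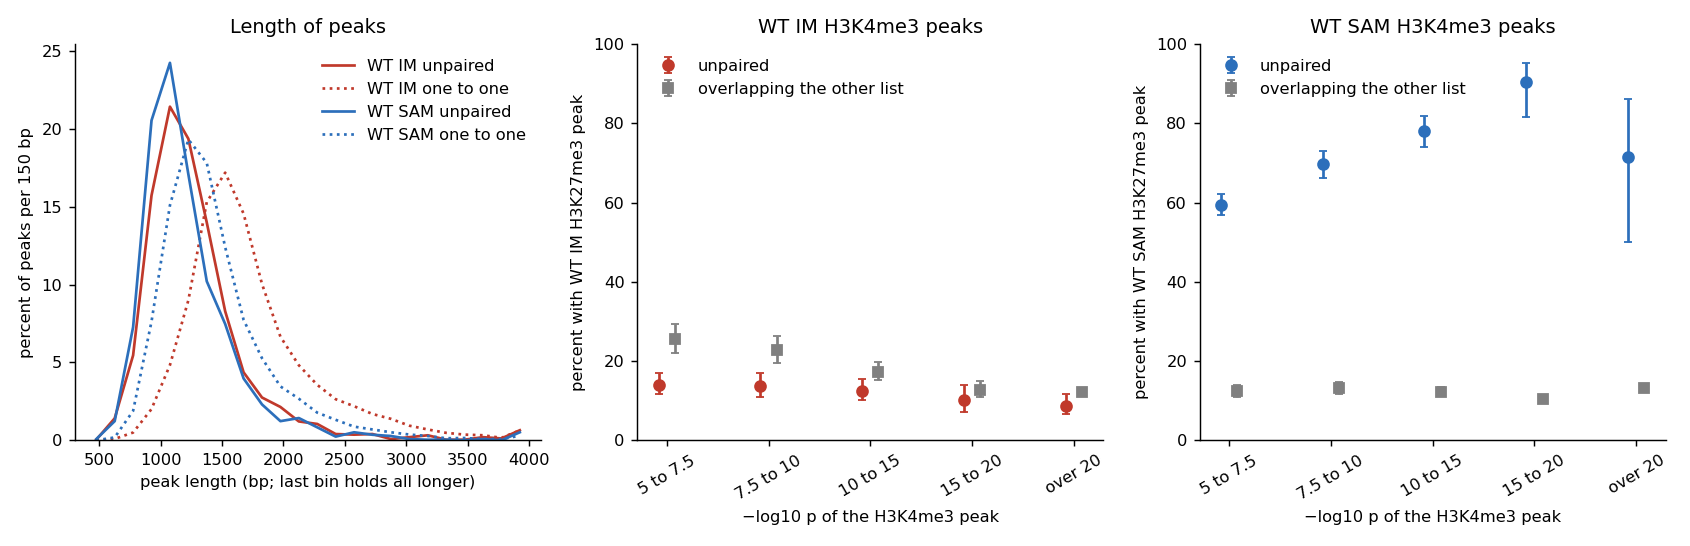
The left panel shows the length of unpaired (solid) and one-to-one (dotted) peaks as a percent of each group per 150 bp; the other panels show the percent of WT IM (middle) and WT SAM (right) H3K4me3 peaks with an H3K27me3 peak of the same tissue, by range of the deposited −log10 p, with 95% Wilson intervals as bars. Unpaired WT SAM peaks lie between 59.5% and 90.4%, above the peaks that overlap the other list in every range, and unpaired WT IM peaks lie below theirs.

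The longest unpaired peaks were mostly of low enrichment, with deposited folds between 2.22 and 3.84 and 1 exception at 5.04. In WT IM the first lay on chromosome 4 from 32886517 to 32893864, was 7348 bp long and had 6.61 RPKM at a deposited fold of 2.43. It had no H3K4me3 peak in the other IM lists, and a WT SAM H3K27me3 peak of 2860 bp lay in it. The next, on chromosome 9 from 4704582 to 4711457, had 10.4 RPKM over 6876 bp and 12.6 of H3K27me3 in WT IM over 7438 bp. On chromosome 11 from 12159587 to 12165618, H3K4me3 was at 7.31 over 6032 bp and H3K27me3 at 7.14 over 6000 bp in WT IM, and on chromosome 5 from 29920383 to 29926170, H3K4me3 was at 8.45 over 5788 bp and H3K27me3 at 8.27 over 5943 bp. The fifth, on chromosome 1 from 16890308 to 16895946, had 10.0 RPKM and no H3K27me3 peak in either tissue, and it was listed in both other IM libraries.

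In WT SAM the longest was 6665 bp, on chromosome 1 from 33531901 to 33538565, with 7.60 RPKM and no peak in any of the other lists compared. On chromosome 7 from 14238138 to 14244755, the 6618 bp peak had 7.56 of H3K4me3 and a WT SAM H3K27me3 peak at 6.18. On chromosome 10 from 5098001 to 5104399, H3K4me3 was at 8.17 and H3K27me3 at 8.30 in WT SAM, and on chromosome 3 from 13360894 to 13366597 H3K4me3 was at 8.49 and H3K27me3 at 8.49. That last peak ended 0.262 kb from a WT IM peak. On chromosome 10 from 8105848 to 8111045, the WT SAM peak was strong, with 15.5 RPKM and a fold of 5.04. SDG711 RNAi IM had a peak there at 9.89 and jmj703 IM at 14.4, so it was missing from WT IM only among the 4 H3K4me3 lists, and it had no H3K27me3 peak in WT IM or WT SAM.

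Unpaired peaks took a larger share where peaks were sparse. The genome was cut into 379 windows of 1 Mb, ranked by the number of H3K4me3 peaks in the SDG711 RNAi IM and jmj703 IM lists, which took no part in the pairing. Over 4 equal groups of windows in order of increasing peak number, the unpaired share was 15.5, 11.9, 11.3 and 9.23% of the WT IM peaks. For the WT SAM peaks it was 16.5, 14.0, 11.6 and 7.73%. Both ranking lists are of IM, and 80.7% of the unpaired WT SAM peaks were in neither. Part of the WT SAM trend can thus be built into the ranking, and that part was not tested. By chromosome the unpaired share lay between 8.34% (chromosome 3) and 14.7% (chromosome 11) in WT IM and between 8.31% (chromosome 2) and 15.3% (chromosome 10) in WT SAM. Unpaired peaks were spread widely, with at least 1 WT IM and 1 WT SAM peak of this kind in 375 windows each and a median of 6 per window in either list. The fullest window held 22 in WT IM and 19 in WT SAM. With p of at most 1e-10 in both lists, the share in the group with the fewest peaks was 26.5% in WT IM and 7.33% in WT SAM. That filter also moved the unpaired number over all windows, from 2475 to 4297 in WT IM and from 2518 to 903 in WT SAM. These 2 shares are therefore not comparable with the unfiltered ones.

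The shifts at paired peaks were also read as medians over windows, which spread less than single pairs whatever their evenness along the chromosomes. Among the 374 windows with at least 10 pairs, the middle 90% had a median log2 density ratio between -0.10 and 0.08 relative to all pairs, and a median log2 length ratio between 0.18 and 0.31. The lowest window median of the length ratio was 0.10, so none of these windows had a median below 0. Over the 4 groups of windows in order of increasing peak number, the median log2 density ratio was 0.39, 0.40, 0.41 and 0.44, and the share of pairs at least 1.5-fold sparser in WT IM was 7.09, 6.63, 4.79 and 3.75%. Within 100 kb of the outermost peak of a chromosome, 19 of 172 pairs were at least 1.5-fold sparser in WT IM (Wilson interval 7.19 to 16.6%), against 5.03% of all pairs.

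**Figure D5:**
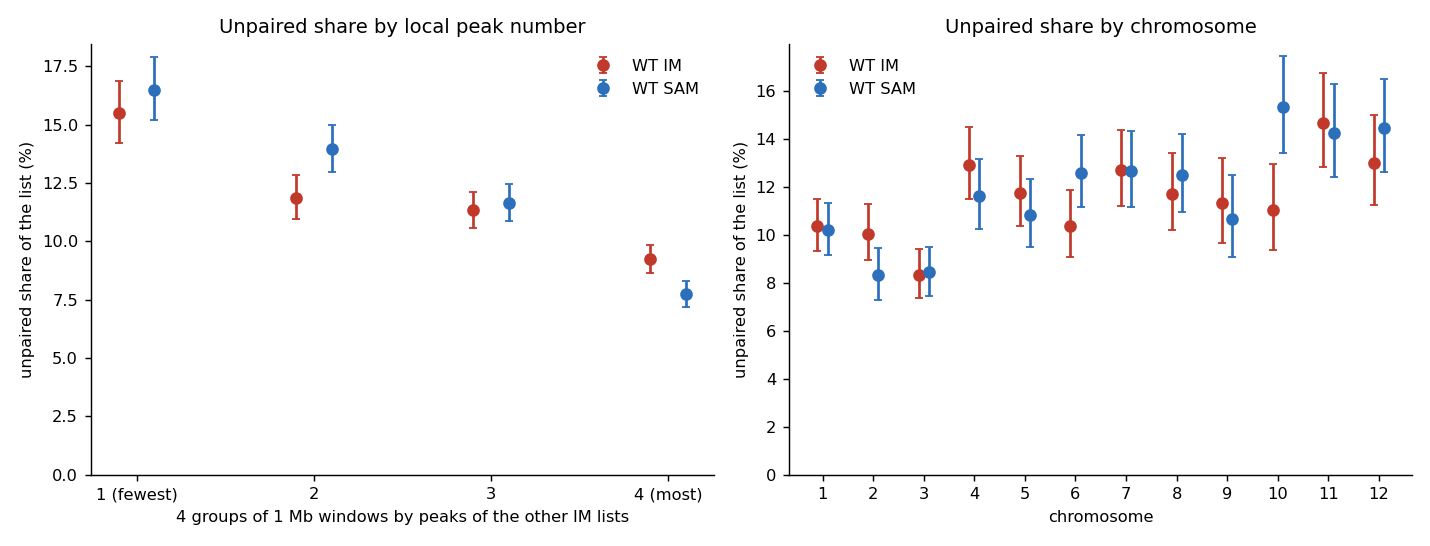
Unpaired share of the WT IM and WT SAM lists in percent, with 95% Wilson intervals as bars, by group of the 1 Mb windows in order of peak number in the other IM lists (left) and by chromosome (right). The share is 15.5% in WT IM and 16.5% in WT SAM in the group with the fewest peaks, and 9.23% in WT IM and 7.73% in WT SAM in the group with the most.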

How the data were processed

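The authors used MACS 1.4.0rc2 for each library, per the file headers, on alignments with duplicates removed, without a control library, at p of 1e-05, with a genome size of 401 Mb and a background window of 10 kb. The submitters' processing notes also list Trimmomatic 0.32, Bowtie2 2.1.0, Cufflinks 2.2.1 and TopHat2 2.0.13, with no step assigned. The genome build is not given there. The deposited tag counts per peak are raw. The deposited score is −log10 p multiplied by 10, and the deposited fold is the ratio of peak height to regional background; both are the authors' values and served to describe or filter peaks within a list.

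Overlaps, ratios and intervals were computed with Python 3.11.15, numpy 2.4.6, pandas 2.3.3 and scipy 1.17.1, and tested on simulated data. Shares have 95% Wilson intervals and density ratios exact (Clopper-Pearson) intervals, which cover counting error only. Chromosome ends were taken as the outermost peaks. Named pairs had at least 100 tags and 500 bp in both lists: the 5 highest and lowest ratios of density and of length, and the 5 longest unpaired peaks of each list. Members, lists and rules were chosen with earlier results of these data known. The 6 RNA samples were not analysed here.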

Additional observations from a re-analysis of the deposited data

How the results depend on the processing

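No paired analysis was possible because each group had 1 library, and no library could be left out. Of 96 values recomputed under other settings, 51 stayed within their limit (1.5-fold for counts, the 95% interval for medians and shares). Part of the 51 could not move. Scaling by tags before filtering changes nothing, as both libraries had equal numbers before and after it. Centred counts do not depend on scaling by tags inside peaks. The median log2 density ratio turned to -0.24 when scaled by tags inside peaks, and was 0.44 at p of at most 1e-10, 0.44 with the 20000 peaks of lowest p in each list, and 0.70 without division by length. Pairs at least 2-fold denser in WT IM numbered 2 at p of at most 1e-10, 100 without division by length and 136 without centring. Pairs at least 2-fold sparser numbered 29 at p of at most 1e-10, 29 with 20000 peaks, 709 without division by length and 0 without centring. Pairs at least 1.5-fold shorter in WT IM numbered 59 at p of at most 1e-10 and 71 with 20000 peaks, and pairs narrower at both ends 61 and 67, or 298 with an edge limit of 50 bp. That limit gave 9659 pairs wider at both ends and 5822 at one end. At p of at most 1e-10, 4297 WT IM and 903 WT SAM peaks were unpaired, with shares in the peak-poor windows of 26.5% in WT IM and 7.33% in WT SAM. The WT SAM share was 18.2% with 500 kb windows and 14.5% with 20000 peaks. Of the 4297 WT IM peaks, 1333 overlapped no peak of the whole WT SAM list, and the rest overlapped only WT SAM peaks that the filter had removed. The cause of the other shifts was not tested, beyond the smaller lists and changed units that the settings themselves bring.

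The following settings were chosen after seeing the data. At p of at most 1e-10 in the H3K4me3 lists, pairs with H3K27me3 in WT SAM only differed from pairs without it by a log2 density ratio of -0.17 and a log2 length ratio of -0.072, and pairs with it in both tissues by -0.21 and -0.10. With H3K27me3 peaks of p at most 1e-10, the differences in density and length were 0.018 and -0.032 for WT IM only, -0.36 and -0.12 for WT SAM only, and -0.41 and -0.17 for both. The share of unpaired peaks with H3K27me3 of their tissue was 9.40% in WT IM at p of at most 1e-10 in both lists. For unpaired peaks of p at most 1e-10 against the whole other list it was 10.7% in WT IM and 79.5% in WT SAM. With H3K27me3 peaks of p at most 1e-10 it was 8.81% in WT IM and 51.7% in WT SAM. Scaled by tags inside peaks, the WT IM peak was denser in 14.9% of pairs and both denser and longer in 14.1%. The ratio of H3K4me3 to H3K27me3 density was then 0.416 (unpaired) and 0.934 (paired) in WT IM, and 0.528 (unpaired) and 0.833 (paired) in WT SAM.

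Joining peaks up to 500 bp apart and a reciprocal overlap of 50% moved none of the counts and medians beyond its limit. Of 81 values of named pairs under other settings, 74 stayed within their limit and 7 moved, all in the same direction as before. Part of the 74 could not move. Centring cancels the scaling by tags inside peaks, and filtering a list does not alter the length of a peak. Named pairs that a setting removed from the pairing were not among the 81. A median of 304 tags in WT IM and 140 in WT SAM per paired peak limits the precision of single ratios.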
